A study of Mus musculus with 4 samples.

Results

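The cathepsin, lysosome-associated membrane protein (LAMP) and vacuolar ATPase (V-ATPase) genes were compared between 2 mouse ovarian cancer cell lines. They were chosen by gene symbol alone: every probe whose RefSeq accession belongs to a symbol beginning with Cts, to Lamp followed by a digit, or to Atp6v or Atp6ap. This gave 66 probes for 53 genes, out of 56605 probes and 22911 named genes on the array, with 23 cathepsins, 4 LAMP genes and 26 genes named as V-ATPase subunits or accessory proteins. One of the last, Atp6v1fnb, is named after its neighbor Atp6v1f and is not a known subunit.

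ID8G cells are ID8 cells, a mouse ovarian surface epithelial line that transformed in culture, transduced with a retrovirus for GFP and sorted as GFP-positive. GO2 cells descend from them. ID8G cells were injected i.p. into adult female C57BL/6 J mice, CD45-GFP+ cells were sorted from the omental tumors and cultured briefly, and these cells were injected and sorted from the omentum once more. Both lines carry GFP, both were grown in the same DMEM with serum, insulin, transferrin and selenite, and neither received a drug. RNA of each line was hybridized to 2 one-color Agilent arrays (n = 2 per line). The labels do not say whether the arrays of a line came from separate cultures, so the p-values measure the spread between these arrays, which may be technical. GO2 is 1 population selected in this way, so other populations from the same passage are not represented. The design asks which genes differ between the parental and the highly disseminating line.

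Lysosomes break down protein, lipid and glycan delivered by endocytosis and autophagy. Cathepsins are their proteases, most of them cysteine proteases, with aspartic and serine members, and tumor cells can also release them. LAMP proteins cover the inner face of the lysosomal membrane and protect it. The V-ATPase pumps protons into the lumen: its V1 sector, in the cytosol, hydrolyzes ATP, and its V0 sector, in the membrane, carries the protons, and the low pH that results is what most cathepsins need for activity.

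Levels are log2 intensities of a probe, relative to the 75th percentile of all probes on its array, so that 0 is the brightness of that percentile and a step of 1 is a 2-fold change. Probes differ in how strongly they bind, so levels are compared between cell lines for 1 probe and never between probes. Differences are GO2 minus ID8G on this log2 scale. A gene was tested where at least 1 cell line had its probe well above background on both of its arrays. It was called higher or lower at a Benjamini-Hochberg adjusted p below 0.05 (limma, over 28370 tested probes) with a log2 difference of at least 1, and a weaker class needed the adjusted p alone.

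Of the 53 genes, 30 were tested: 8 cathepsins, 3 LAMP genes and 19 V-ATPase genes. Ctsh and Ctsc were called lower in GO2 cells, and none of the 30 was called higher (limma; 0 higher and 2 lower also at an unadjusted p below 0.05 with the same size limit). Among all 13215 named genes with a tested probe, 9.92% were called, 5.98% higher and 3.94% lower. By adjusted p alone 7 members were higher and 7 were lower, 46.7% of the 30, where 41% of all genes passed, 21% higher and 20% lower. One of the 7 higher, Ctsf, entered the test through its GO2 arrays alone. The median difference was 0.04 over the 30 members, and the median size of the difference was 0.214, where it was 0.207 over all genes. In 27 of the 30 the 2 GO2 arrays lay entirely on one side of the 2 ID8G arrays, which 78.4% of all genes did. Differences below 0.5 were found for 24 of the 30 members, or 80%, and for 78.8% of all genes. These shares lie near those of all genes, so the account of these families rests on single genes.

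**Figure D1:**
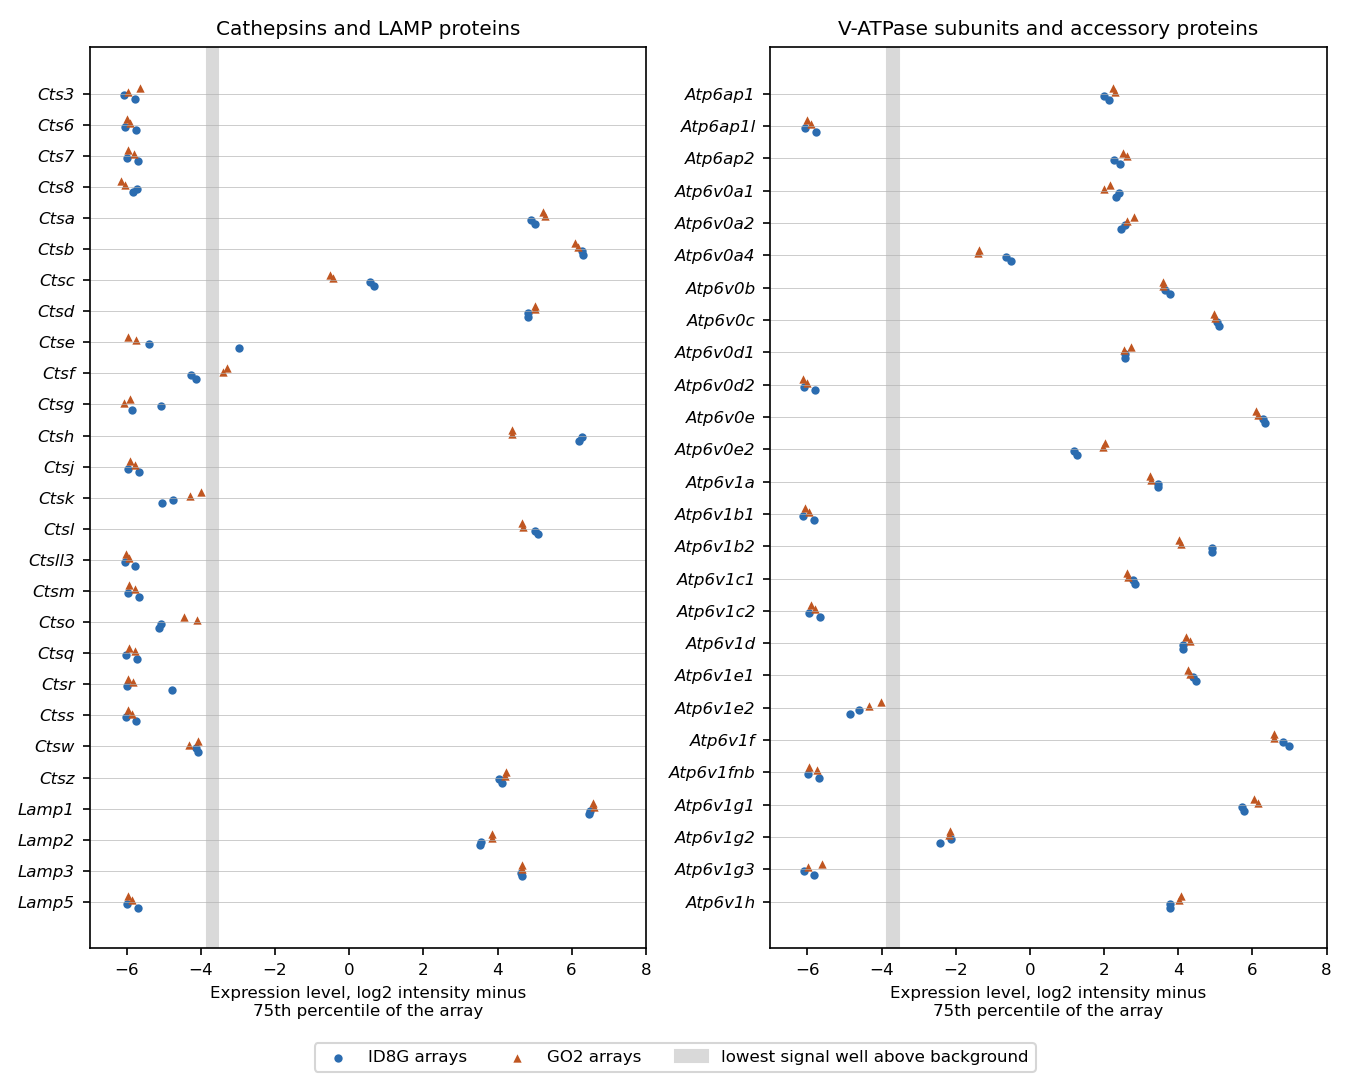
Level of each of the 53 genes on every array, in log2 units relative to that array's 75th percentile, for ID8G (circles) and GO2 (triangles), with 1 probe per gene and n = 2 arrays per line. The gray band spans the lowest signals called well above background on the 4 arrays, and the 23 genes without a tested probe lie to its left except for 1 ID8G array of Ctse.

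The split between higher and lower depended on the scaling. Scaled to 7 spike-in RNAs in place of the 75th percentile, the median of all tested probes moved from -0.023 to -0.23, 2 members were higher and 12 lower by adjusted p alone, and of all calls 43.5% were higher in GO2 in place of 57.4%. Leaving out any 1 of the 4 arrays reduced the members higher by adjusted p alone from 7 to 2. Those lower went from 7 to 4 without ID8G replicate 1, GO2 replicate 1 or GO2 replicate 2 and were 7 without ID8G replicate 2, of which 6 were among the original 7 and the other was Ctse, which of these 4 fits was tested in that one only. In these fits the largest differences were -1.87 to -1.79 for Ctsh, -1.17 to -1.04 for Ctsc and -0.89 to -0.85 for Atp6v1b2. They were -0.89 to -0.75 for Atp6v0a4, 0.74 to 0.81 for Atp6v0e2 and, as fitted, 0.76 to 0.90 for Ctsf. Ctsf was tested through its GO2 arrays alone, and its adjusted p was 0.104 by limma with dim signals set to a floor. The share of all genes that passes the adjusted p with 1 array left out is not given here, so these counts have no background.

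The cysteine cathepsins held the largest differences of the 30 genes. Ctsh, an aminopeptidase that trims peptides from their amino end, had levels of 6.19 and 6.27 in ID8G cells and 4.39 and 4.40 in GO2 cells with probe A_52_P51078. Both GO2 arrays lay far below both ID8G arrays, and the spread within a line was small beside the gap between the lines. The level fell by 1.83 (SE 0.06, 95% interval -1.99 to -1.68, adjusted p = 0.000327, limma), a 3.56-fold lower signal in GO2 cells. Its other probes fell as well, A_51_P277792 by 2.07 and A_66_P124326 by 2.03, and the size of the Ctsh difference exceeded that of 95.2% of all named genes tested. Across the alternatives the Ctsh difference stayed between -2.04 and -1.79, and its adjusted p was at most 0.00863 by limma but 0.148 by the methods' t-test.

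Ctsc, or dipeptidyl peptidase 1, cuts dipeptides from the amino end of proteins and activates the serine proteases of immune cell granules. Its levels were 0.68 and 0.56 in ID8G cells and -0.44 and -0.52 in GO2 cells. The arrays of the lines did not overlap, and the gap between them was far wider than the spread within a line. The level fell by 1.11 (SE 0.07, 95% interval -1.30 to -0.91, adjusted p = 0.00154, limma), which is 2.15-fold lower. This is close to the size limit, and with normexp background correction the fall was 0.96 (adjusted p = 0.000128), so Ctsc was then not called. Ctsh has no promoter window in the table used here, and for Ctsc the 120 bases before the start are shown because it is the other called gene (RefSeq, GRCm38.p6, chr7:88277965-88278084, plus strand, 5′ to 3′, with the GC box CCGCCC in capitals).
Ctsc: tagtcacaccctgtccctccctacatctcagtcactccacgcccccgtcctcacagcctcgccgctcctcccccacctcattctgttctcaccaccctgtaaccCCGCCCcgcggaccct
The capitals lie near the start, and no CACGTG occurs in the window of this gene.

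Ctsl, a broadly expressed endopeptidase and one of the main cathepsins of the lysosome, had levels of 5.08 and 5.02 in ID8G cells and 4.69 and 4.66 in GO2 cells. The lines did not overlap, but the gap was a small part of that of Ctsh. The level fell by 0.37 (95% interval -0.53 to -0.22, adjusted p = 0.0124, limma), 1.30-fold, and the adjusted p rose to at most 0.0721 with 1 array left out. Ctsf, a cysteine protease with a long propeptide, gave weak signal, -4.12 and -4.26 in ID8G cells and -3.41 and -3.30 in GO2 cells. No ID8G array was well above background and both GO2 arrays were, so the difference has a lower limit only. With the main background correction and scaling Ctsf was at least 1.25-fold higher in GO2 cells (adjusted p = 0.00415 for the fitted difference by limma, and 0.104 with dim signals set to a floor). The fitted difference was 0.83, but 0.29 with normexp background correction and 0.62 with spike-in scaling, so this limit holds for the main processing only.

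Ctsb, an endopeptidase that also removes dipeptides from the carboxyl end, had levels of 6.29 and 6.29 in ID8G cells and 6.16 and 6.09 in GO2 cells. Its difference was -0.17 (95% interval -0.32 to -0.02, adjusted p = 0.0823, limma), and it did not pass. Ctsz, a carboxypeptidase also called cathepsin X, had levels of 4.12 and 4.03 against 4.20 and 4.23 and a difference of 0.14 (adjusted p = 0.131). Outside the placental group 6 of 10 cysteine cathepsins were tested. Ctsh, Ctsc and Ctsl were lower by adjusted p alone, Ctsf had a lower limit on its rise, and Ctsb and Ctsz did not pass, where 41% of all genes passed. The intervals of Ctsb and Ctsz run from -0.32 to 0.31 together.

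Of the other catalytic types, the aspartic protease Ctsd had levels of 4.83 and 4.81 in ID8G cells and 5.02 and 5.01 in GO2 cells. Its arrays did not overlap, and the difference was 0.19 (95% interval 0.06 to 0.33, adjusted p = 0.0482, limma). With spike-in scaling the difference of Ctsd was -0.016 (adjusted p = 0.925), so its direction depends on the scaling. The serine carboxypeptidase Ctsa, which also protects lysosomal galactosidase and neuraminidase from degradation, had levels of 5.00 and 4.91 against 5.27 and 5.24. It was higher in GO2 cells by 0.30 (95% interval 0.13 to 0.46, adjusted p = 0.0261), and lost this with any array left out (adjusted p up to 0.121).

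The other 15 cathepsins were not tested. They include Ctsk, the collagen-degrading cathepsin of osteoclasts, Ctss, known from antigen-presenting cells, Ctsg of neutrophil granules, Ctsw of lymphocytes, Ctso, Ctse and 9 rodent placental cathepsins. Of these 15, 14 were well above background on no array, and the placental genes ranged from -6.14 to -4.78. Ctse, an aspartic protease, was above background on 1 array: its levels were -2.98 and -5.39 in ID8G cells and -5.74 and -5.96 in GO2 cells. The ID8G arrays disagreed with each other, and no difference is given.

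**Figure D2:**
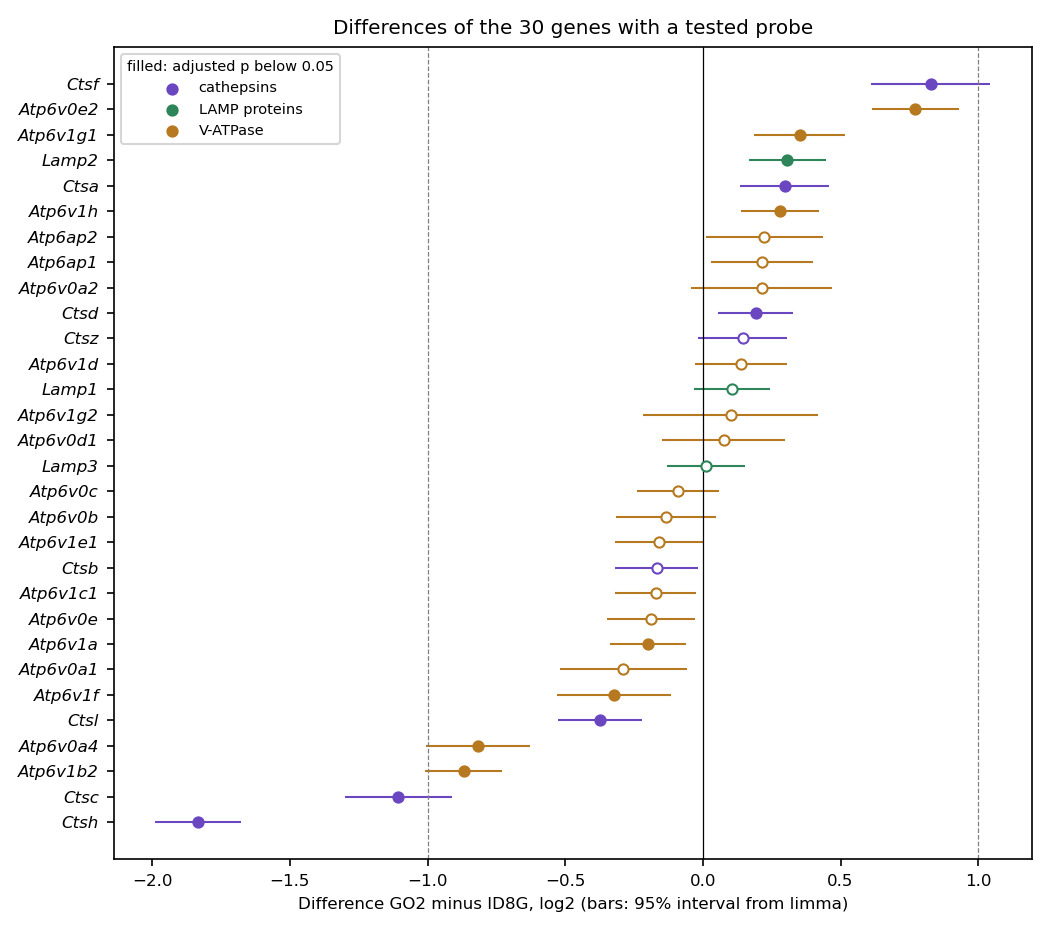
Difference GO2 minus ID8G on the log2 scale for the 30 genes with a tested probe, with the 95% interval from limma (n = 2 arrays per line). Filled points passed an adjusted p of 0.05 and dashed lines mark a 2-fold change, which only Ctsh and Ctsc passed with that p. Ctsf is drawn at its fitted value of 0.83, although its ID8G signal was not above background, and Ctsd turns to -0.016 with spike-in scaling.

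Cystatins are the natural inhibitors of the cysteine cathepsins. Of 11 inhibitors listed, 5 were tested, and Cst6, a secreted cystatin that inhibits cathepsin L and legumain, was called higher. Among all genes 9.92% were called, 5.98% higher. By adjusted p alone 20% of the 5 passed, where 41% of all genes did. Its levels were -2.84 and -2.96 in ID8G cells and -0.65 and -0.78 in GO2 cells, a rise of 2.18 (adjusted p = 0.00043, limma), 4.54-fold. The lines were far apart for Cst6, and a link to the falls of Ctsh and Ctsc was not tested. Cst3, the abundant secreted cystatin C, had a difference of 0.11 (adjusted p = 0.214) and Cstb, a cytosolic cystatin, one of -0.10 (adjusted p = 0.272). Cst8, best known from the male reproductive tract, gave levels of -2.38 and -2.54 in ID8G cells with probe A_55_P2038106. No GO2 array was well above background, and this probe was called lower, by at least 2.58-fold (adjusted p = 0.000496, limma). The other Cst8 probe, which represents the gene in the counts, was -1.26 (adjusted p = 0.088), with GO2 arrays at -4.79 and -3.60 that disagreed with each other.

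**Figure D3:**
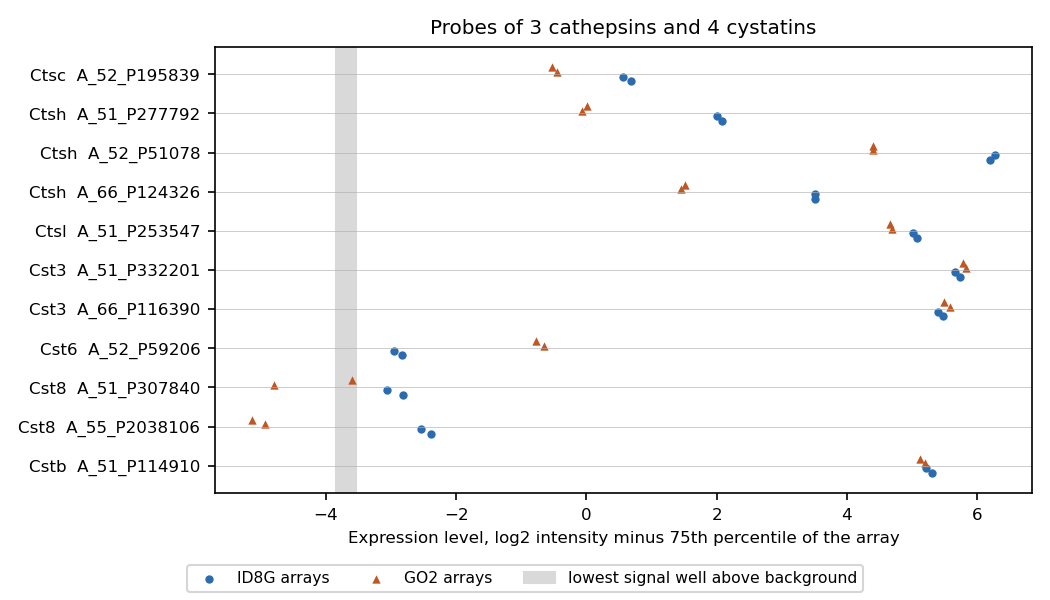
Level on each array, in log2 units relative to that array's 75th percentile, for the tested probes of Ctsc, Ctsh and Ctsl and of the cystatins Cst3, Cst6, Cst8 and Cstb (circles ID8G, triangles GO2, n = 2 each). All 3 Ctsh probes and the Ctsc probe are lower in GO2 cells, Cst6 is higher, and the GO2 values of Cst8 lie at or below the gray band of lowest detected signals.

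Of the LAMP genes, Lamp2, which also serves chaperone-mediated autophagy, had levels of 3.53 and 3.57 in ID8G cells and 3.86 and 3.85 in GO2 cells with probe A_52_P483280. The lines did not overlap, and the difference was 0.31 (95% interval 0.17 to 0.45, adjusted p = 0.0165, limma). The other Lamp2 probe, A_55_P2102126, is assigned to another RefSeq transcript and had a difference of 0.02 (95% interval -0.15 to 0.20, adjusted p = 0.79), so the probes of this gene disagreed. With any array left out the first probe reached an adjusted p of at most 0.0918, and with spike-in scaling its difference was 0.10 (adjusted p = 0.529). Lamp1, the most widely used lysosomal membrane marker, had levels of 6.46 and 6.48 against 6.59 and 6.57, a difference of 0.11 (adjusted p = 0.178), and its second probe gave -0.05 (adjusted p = 0.494). Lamp3, a LAMP known from mature dendritic cells and induced by hypoxia in tumors, had levels of 4.67 and 4.63 in ID8G cells and 4.67 and 4.65 in GO2 cells, overlapping, and a difference of 0.01 (95% interval -0.13 to 0.15). Lamp5, a neuronal LAMP, was above background on no array. The median difference of the LAMP genes, 0.11, turned to -0.10 with spike-in scaling.

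No V-ATPase gene was called in either direction (limma; with no size limit 5 were higher and 7 lower at an unadjusted p below 0.05, and 0 passed that p with a 2-fold change). By adjusted p alone 3 of the 19 tested genes were higher and 4 were lower, 36.8% of them, where 41% of all genes passed. The median difference was -0.09 and kept its sign under every scaling, between -0.30 and -0.07.

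In the V1 sector 9 of 13 genes were tested. Atp6v1b2, the B subunit used by most tissues, had levels of 4.92 and 4.92 in ID8G cells and 4.07 and 4.03 in GO2 cells. Both GO2 arrays lay well below both ID8G arrays. The level fell by 0.87 (SE 0.05, 95% interval -1.01 to -0.73, adjusted p = 0.00124, limma), 1.83-fold, and a second probe fell by 0.97 (adjusted p = 0.00248). Atp6v1b2 missed the 2-fold limit here and passed it with spike-in scaling, at -1.08. Atp6v1b1, the B subunit of kidney and inner ear, was above background on no array.

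The A subunit, Atp6v1a, which forms the catalytic sites together with B, had levels of 3.45 and 3.44 against 3.26 and 3.23. Its difference was -0.20 (adjusted p = 0.046), smaller than that of its partner Atp6v1b2, with intervals that do not meet (-0.34 to -0.06 for Atp6v1a). Of the stalk subunits, Atp6v1f had levels of 6.99 and 6.83 against 6.58 and 6.59, a difference of -0.32 (adjusted p = 0.0374). Atp6v1g1, of the outer stalk, went the other way, from 5.77 and 5.73 to 6.15 and 6.05, a difference of 0.35 (adjusted p = 0.0179). Atp6v1h, which regulates the coupling of the sectors, had levels of 3.78 and 3.76 against 4.03 and 4.07, a difference of 0.28 (adjusted p = 0.0211), and its second probe gave 0.29 (adjusted p = 0.0358). With spike-in scaling Atp6v1f was at -0.53 (adjusted p = 0.00828), and the rises no longer passed: Atp6v1g1 was at 0.14 (adjusted p = 0.381) and Atp6v1h at 0.073 (adjusted p = 0.651). Atp6v1a did not pass with normexp background correction, and neither Atp6v1a nor Atp6v1f passed with the replicate number in the model. With 1 array left out the differences ran from -0.21 to -0.19 for Atp6v1a and from -0.41 to -0.24 for Atp6v1f. They ran from 0.31 to 0.40 for Atp6v1g1 and from 0.26 to 0.30 for Atp6v1h.
The other tested V1 genes did not pass: Atp6v1c1 at -0.17, Atp6v1d at 0.14, Atp6v1e1 at -0.16 and Atp6v1g2 at 0.10. The remaining V1 genes, Atp6v1c2, Atp6v1e2 and Atp6v1g3, forms with narrow tissue distribution, and the neighbor gene Atp6v1fnb, had no tested probe.

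In the V0 sector 8 of 9 genes were tested, and the genes with the largest differences moved in opposite directions. Atp6v0a4, the a subunit of kidney intercalated cells, had levels of -0.50 and -0.64 in ID8G cells and -1.39 and -1.38 in GO2 cells. The lines did not overlap, and the level fell by 0.82 (SE 0.07, 95% interval -1.01 to -0.63, adjusted p = 0.00305, limma), 1.76-fold, or by 1.03 with spike-in scaling, past the size limit. Atp6v0e2, a small membrane subunit with a paralog, Atp6v0e, had levels of 1.27 and 1.20 in ID8G cells and 1.98 and 2.03 in GO2 cells. Both GO2 arrays were higher, by 0.77 (SE 0.06, 95% interval 0.61 to 0.93, adjusted p = 0.00228, limma), 1.71-fold, or by 0.56 with spike-in scaling. Atp6v0e itself had levels of 6.34 and 6.27 against 6.14 and 6.09 and a difference of -0.19 (95% interval -0.35 to -0.03, adjusted p = 0.072), so the paralogs differed with intervals that do not meet.

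The a subunit, which directs the pump to a membrane, has 4 forms in the mouse. Atp6v0a1 had levels of 2.33 and 2.41 against 1.99 and 2.17, a difference of -0.29 (adjusted p = 0.0624). Atp6v0a2 had levels of 2.45 and 2.57 against 2.63 and 2.82, a difference of 0.21 (95% interval -0.04 to 0.47, adjusted p = 0.151), and its other probe gave 0.02. The a3 form, Tcirg1, falls outside the symbol rule and had a difference of 0.08 (adjusted p = 0.28). Only Atp6v0a4 passed among these forms, and the 95% intervals of Atp6v0a1 and Atp6v0a2 reached -0.52 and 0.47.
The proteolipids of the proton-carrying ring, Atp6v0b and Atp6v0c, had differences of -0.13 (95% interval -0.32 to 0.05) and -0.09 (95% interval -0.24 to 0.06). Atp6v0d1, which joins ring and stalk, had a difference of 0.08 (adjusted p = 0.507), with overlapping arrays, and its osteoclast form Atp6v0d2 was above background on no array. The accessory proteins Atp6ap1 and Atp6ap2, the latter also the renin receptor, had differences of 0.22 and 0.22 (adjusted p = 0.0739 and 0.0932), and Atp6ap1l had no tested probe.

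The 120 bases before the start of the V0 genes that moved most are shown for comparison (RefSeq, GRCm38.p6, 5′ to 3′, with the GC box GGGCGG or CCGCCC in capitals). Atp6v0a4 lies at chr6:38124587-38124706, minus strand, and Atp6v0e2 at chr6:48537449-48537568, plus strand.
Atp6v0a4: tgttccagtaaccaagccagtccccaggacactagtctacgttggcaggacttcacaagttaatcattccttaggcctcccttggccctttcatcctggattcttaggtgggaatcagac
Atp6v0e2: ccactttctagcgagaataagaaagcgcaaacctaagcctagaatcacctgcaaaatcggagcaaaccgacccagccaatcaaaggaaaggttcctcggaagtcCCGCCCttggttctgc
The stretch of Atp6v0e2 holds 1 GC box and that of Atp6v0a4 holds 0. In longer windows of 300 bases, GGGCGG on either strand occurred in 35.7% of all 32851 RefSeq promoter windows. It occurred in 59.5% of those of genes tested and in 46.8% of the 47 windows of members. By tested state, 18 of 27 windows of tested members held it, or 66.7%, and 4 of 20 of those not tested. These shares are not the background of a stretch of 120 bases.

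TFEB and its relatives bind the E-box CACGTG in the promoters of many lysosomal genes. A window of 300 bases, from 250 before the start to 50 after it, was found for 42 of the 53 genes. CACGTG, a palindrome that reads alike on both strands, was present in 10 of the 47 member windows, or 21.3%, where 7.15% of all windows and 9.52% of the windows of genes tested held it. By tested state, 9 of 27 windows of tested members held it and 1 of 20 of those not tested. The longer TCACGTGA, which contains it, was found in 10.6% of member windows, 1.72% of those of genes tested and 0.974% of all. The full CLEAR palindrome, longer by a base on each side, was found in 0 of the 47 member windows, 0.643% of those of genes tested and 0.326% of all. The stretches around the E-boxes of 6 members are shown because these genes differ in how they moved, with CACGTG in capitals and all bases before the start (RefSeq, GRCm38.p6, 5′ to 3′).
Lamp1: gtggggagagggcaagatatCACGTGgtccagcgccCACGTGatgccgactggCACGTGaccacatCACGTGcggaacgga
Atp6v0b: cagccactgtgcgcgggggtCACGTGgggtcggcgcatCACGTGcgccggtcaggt
Atp6v1a: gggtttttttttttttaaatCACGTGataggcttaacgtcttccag
Ctsd: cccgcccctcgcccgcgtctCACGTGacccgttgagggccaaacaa
Ctsf: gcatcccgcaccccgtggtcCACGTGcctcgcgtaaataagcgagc
Ctsa: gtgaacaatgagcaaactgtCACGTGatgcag
The positions are chr8:13159080-13159160, plus strand, chr4:117887330-117887385, minus strand, chr16:44139365-44139410, minus strand, chr7:142387900-142387945, minus strand, chr19:4855066-4855111, plus strand and chr2:164833741-164833772, plus strand. Lamp1 holds 4 copies in 81 bases and Atp6v0b 2 copies in 56 bases. Ctsd and Ctsa also hold 2 copies each in a window of 300 bases, of which 1 is shown. The copy not shown lies farther before the start in Ctsd and after the start in Ctsa. The other members with an E-box were Atp6v0d1, Atp6v0e, Ctsl and Ctsll3. Genes with this motif went both ways: by adjusted p alone Ctsa, Ctsd and Ctsf were higher and Ctsl and Atp6v1a were lower. Among all genes 41% passed, 21% higher and 20% lower. Lamp1, Atp6v0b, Atp6v0d1 and Atp6v0e did not pass and Ctsll3 was not tested. Ctsf was tested through its GO2 arrays alone, and its adjusted p was 0.104 by limma with dim signals set to a floor. With spike-in scaling Ctsd was at -0.016, and of the 5 that passed only Ctsf did so in all 4 fits without 1 array. A match describes these letters and says nothing about binding in these cells.

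The factors named above were measured too. Tfeb had levels of 0.12 and 0.10 in ID8G cells and -0.52 and -0.40 in GO2 cells, a difference of -0.57 (adjusted p = 0.00632, limma), and 3 of its 4 probes passed, the last at -0.21 (adjusted p = 0.103). Tfe3 had a difference of 0.00. Mitf gave weak signal that spread widely, -4.70 and -3.76 in ID8G cells and -2.85 and -3.26 in GO2 cells, and did not pass (adjusted p = 0.0701).

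Outside the 53 genes, 89 other lysosome genes were listed, of which 79 were tested. Calls were made for 4 of them, all higher, and 0 lower (limma; 1 lower at an unadjusted p below 0.05 with the size limit), and with the adjusted p alone 20 were higher and 10 lower, with a median difference of 0.08. Of all genes 9.92% were called, with 5.98% called higher, and 41% passed the adjusted p, where 38% of these 79 did. Beside Cst6, the called genes were hydrolases. Acp5, the tartrate-resistant acid phosphatase of osteoclasts and macrophages, rose by 2.26, from -1.76 and -1.72 to 0.46 and 0.57. Man2b1, a mannosidase that trims glycans, rose by 1.32, from 1.82 and 1.86 to 3.15 and 3.18. Gaa, the acid glucosidase that degrades glycogen, rose by 1.24, from 3.27 and 3.25 to 4.44 and 4.56. With spike-in scaling 4 were called higher and 1 lower, and 2 were called lower without ID8G replicate 1 and 1 without GO2 replicate 2. Among Acp5, Man2b1 and Gaa the arrays of the lines stood far apart, and among the 35 other hydrolases 12 were higher and 4 lower by adjusted p alone, 45.7% where 41% of all genes passed.
Lgmn, the asparaginyl endopeptidase legumain that processes several cathepsins and is inhibited by Cst6, was higher by 0.78 (adjusted p = 0.00193). Among 19 other membrane proteins tested 5 were higher and 3 lower, 42.1% where 41% of all genes passed, with the cholesterol exporter Npc1 at 0.56 (adjusted p = 0.00428). Of 7 sorting genes, Scarb2 was at 0.38 and Gnptab, which makes the mannose phosphate tag of lysosomal enzymes, at -0.55 (adjusted p = 0.0118).

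**Figure D4:**
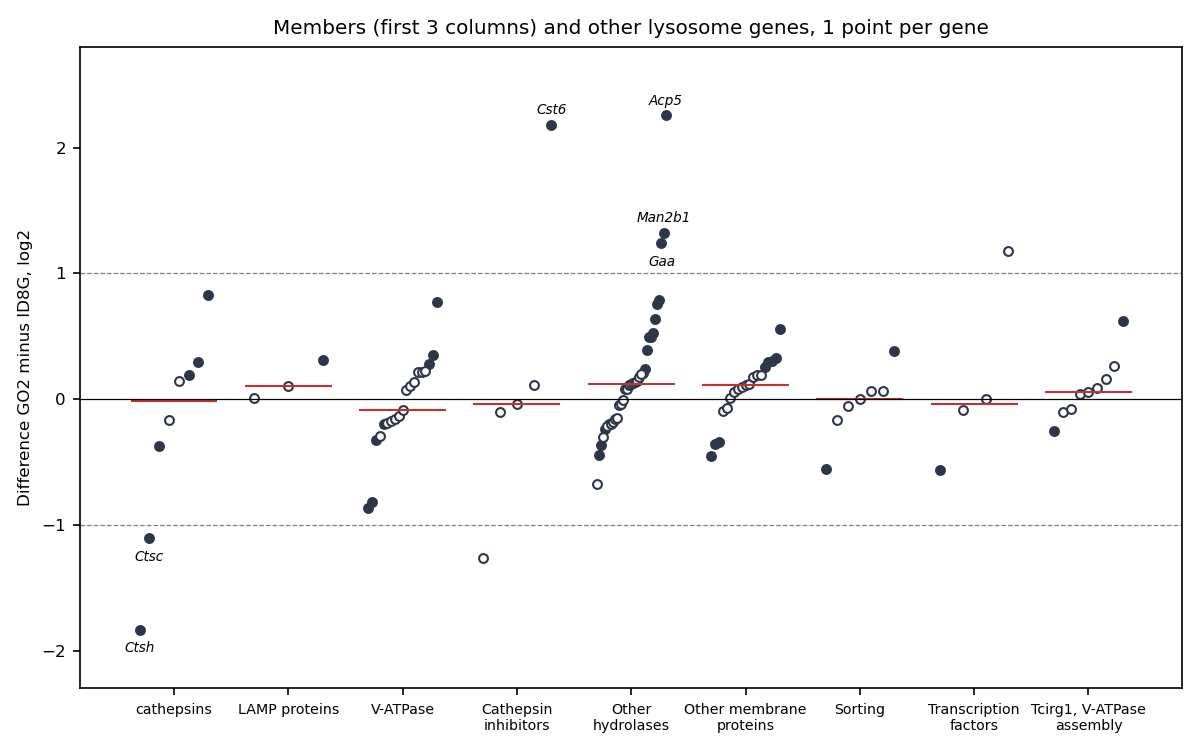
Difference GO2 minus ID8G on the log2 scale for each tested gene of the cathepsin, LAMP and V-ATPase families and of 6 groups of other lysosome genes, 1 point per gene. Filled points passed an adjusted p of 0.05, horizontal bars are medians, dashed lines mark a 2-fold change, and called genes are named. The called genes are 2 cathepsins, lower, and 3 hydrolases and 1 inhibitor, higher, where 9.92% of all genes were called. A second probe of the inhibitor Cst8, not drawn, was called lower. With spike-in scaling the median of all tested probes moves down from -0.023 to -0.23.

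**Figure D5:**
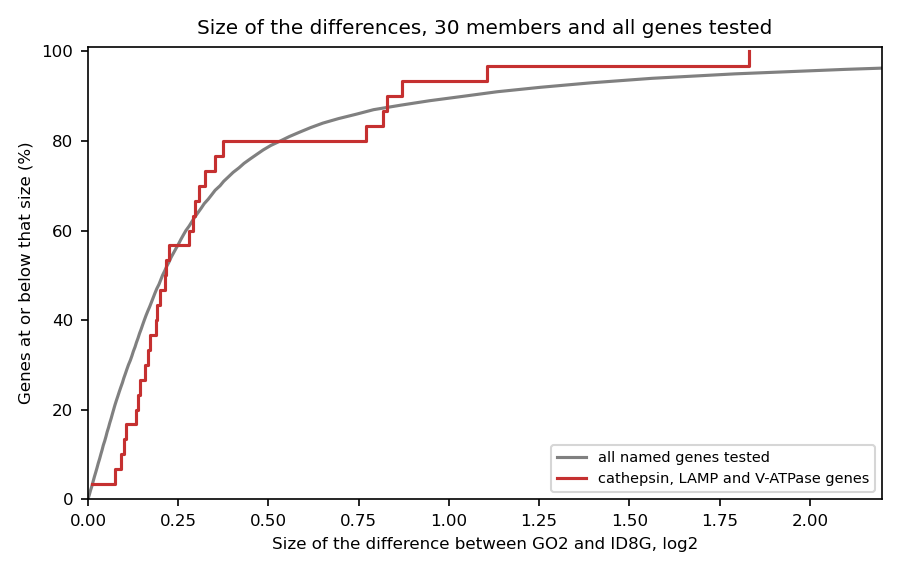
Share of genes, in percent, whose difference between GO2 and ID8G is at or below a given size on the log2 scale, for the 30 tested members (stepped line) and for all named genes tested (smooth line). Below a size of 0.5 lie 80% of members and 78.8% of all genes, while the lower quartile of the members, 0.147, is above that of all genes, 0.091.

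Cell type markers were checked because cathepsins are abundant in macrophages, and in bulk RNA fewer cells of a type cannot be told apart from less RNA per cell. Epithelial and mesothelial markers were listed too, and ID8 is itself an ovarian surface epithelial line. Of 11 leukocyte markers, 7 were well above background on no array, including Ptprc, the gene for the CD45 that was used to remove leukocytes by sorting, Adgre1 and Lyz2. The summed signal of the 11 markers, as log2 of the sum on the linear scale, was 4.47 and 4.64 in ID8G cells and 4.42 and 4.43 in GO2 cells, and 0 were called. Most of this sum came from 1 Itgam probe, at 4.18 and 4.39 in ID8G cells and 4.13 and 4.17 in GO2 cells. The sum therefore says little about the other markers. A second Itgam probe was well above background on 1 GO2 array only. The 4 detected in both lines were Cd14, Csf1r, Fcer1g and Itgam, and of these Cd14 was lower in GO2 cells by adjusted p alone, at -0.69 (adjusted p = 0.0021) and, with its other probe, -0.67 (adjusted p = 0.00298). Of 4 osteoclast markers, checked because of Acp5, Calcr and Dcstamp were above background on no array, Oscar was above it in both lines with a difference of -0.06 (adjusted p = 0.858), and Ocstamp was above it in ID8G cells and not in GO2 cells. Of 4 adipocyte markers, Adipoq and Plin1 were above background on no array, Lep was at -0.04 (adjusted p = 0.62), and Fabp4 was called lower, by at least 6.34-fold, with no GO2 array above background. Of 8 fibroblast markers 4 were called higher (Pdgfra, Pdgfrb, Col1a1 and Col3a1), where 5.98% of all genes were. Dcn was at -0.63 (adjusted p = 0.00309, limma), and 3 were above background on no array (Fap, Lum and Thy1). The signal of the 8 summed in the same way went from 6.15 and 6.10 to 7.02 and 7.03. Most of the ID8G sum came from Dcn, at 6.07 and 6.01. Of 6 epithelial markers Krt19 was called lower, where 3.94% of all genes were. Krt18 at -0.81 (adjusted p = 0.00162, limma) and Krt8 at -0.55 (adjusted p = 0.00438) were lower by adjusted p alone. Cdh1 at -0.34 (adjusted p = 0.06) did not pass, and Krt7 and Epcam were above background on no array in either line. The summed signal, in which Krt18 was the largest term, went from 9.13 and 9.08 to 8.15 and 8.16. All 4 mesothelial markers were above background in both lines, with Upk3b called higher at 1.08 (adjusted p = 0.000787) and Msln at -0.82 (adjusted p = 0.00176). Whether the leukocyte, fibroblast, adipocyte, epithelial or mesothelial genes have a part in the differences of Ctsh, Ctsc, Atp6v1b2 or Atp6v0e2 was not tested.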

How the data were processed

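RNA from 2 ID8G and 2 GO2 samples was labeled with Cy3 and hybridized to SurePrint G3 Mouse GE 8x60K arrays. The authors deposited scanner files with 1 linear intensity per spot, which Feature Extraction 11.5.1.1 had corrected for background without normalization across arrays, and a value table of log2 values that are scaled to the 75th percentile and centered per probe; 0 per-sample columns went unused. The table was used as an alternative. In it the column medians were 0.10, -0.05, 0.04 and -0.05.

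Here each log2 intensity had the 75th percentile of its array's non-control probes subtracted, without spots marked as outliers, with spots of a probe averaged. The 75th percentile lay at intensities of 675 and 668 (ID8G) and 635 and 627 (GO2), 27507 to 28876 probes per array were well above background, and 0 spots were saturated. The number of arrays limits the precision, and an exact permutation test of 2 against 2 arrays cannot go below p = 0.333. Replicates correlated at 0.997 over probes.

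limma 3.58.1 in R 4.3.3 was fitted to all 4 arrays with only the cell line in the model. A gene with several probes is represented by the tested probe with the highest mean. Where a line had no array above background, the fold is a lower limit against the lowest signal well above background on each array, or the probe's own where higher. Figures used matplotlib 3.10.9. Symbols came from RefSeq accessions (GRCm38.p6), which matched 32994 probes (58.3%), and promoters from the same annotation. The procedure was tested on simulated data.

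The members and gene lists were chosen with earlier results of these data known. Named are called members, the 10 largest differences among the others past the adjusted p, and the brightest; genes named beyond these were chosen after their values were seen. All arrays lay on 1 slide and in 1 scan, so a slide block was not run. Alternatives were other background corrections, scalings, filters, tests and probe choices, the replicate number as a block, and leaving out each array. Normexp used an offset of 50 and the median pixel of a spot.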

Additional observations from a re-analysis of the deposited data

How the results depend on the processing

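Of 539 comparisons of a single member with an alternative, 3 lost the call and 3 gained it, and the sign changed in 13, over 7 members. Of these 7, Ctsd (-0.016 with spike-in scaling) was past the adjusted p, and Ctsz, Lamp1, Lamp3, Atp6v0d1, Atp6v1d and Atp6v1g2 were not. Ctsh was called under all alternatives but the methods' t-test. With normexp 1 member was called lower in place of 2, so 1 cathepsin was called, and the medians of the cathepsins, LAMP genes and V-ATPase genes were -0.055, 0.16 and -0.13. The same medians were 0.024, 0.14 and -0.065 with quantile normalization, -0.042, 0.076 and -0.12 after each array was centered on its median, and -0.22, -0.10 and -0.30 with spike-in scaling. Spike-in scaling also gave 4 members called lower, 2 of them V-ATPase genes, 2 higher and 12 lower by adjusted p alone, and 1 other lysosome gene called lower. Without a filter on dim probes, 2 members were higher and 4 lower by adjusted p alone, with more probes in the adjustment. With all 4 arrays above background required, which removes Ctsf, the cathepsin median was -0.17. With an intensity trend 12 members were higher and 12 lower by adjusted p alone, and 1 other lysosome gene was called lower. The methods' t-test after Benjamini-Hochberg adjustment gave 0 members called lower, 0 cathepsins called and 0 other lysosome genes called higher. Past the adjusted p it gave 0 members higher and 0 lower. At an unadjusted p below 0.05 the same t-test gave 6 members higher and 6 lower. The study names this Welch t-test for comparisons of 2 groups in general, and it names no test for its arrays. limma treat with a minimum of 0.5 gave 0 members higher and 3 lower past the adjusted p, with 1 V-ATPase gene, Atp6v1b2. Averaging the probes of a gene gave a LAMP median of 0.027 and 1 other lysosome gene called lower.

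Leaving out each array in turn, where the lone array is assumed to vary like the others, gave 2 to 2 members higher and 4 to 7 lower by adjusted p alone, a V-ATPase median of -0.12 to -0.059, and 0 to 2 other lysosome genes called lower. The replicate numbers do not pair the arrays (correlation of same-numbered deviations 0.0273). With the replicate number as a block 2 members were called lower, and 6 were higher and 5 lower by adjusted p alone. Dim signal limits the 23 members that were not tested and Ctsf. Except where a sentence names the reason, the cause of a change was not tested.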
